A study of Homo sapiens with 18 samples.

Results

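Connexins are the membrane proteins of gap junctions, and 5 of their genes are described here in 3 human lung cancer cell lines treated with CCS1477 or with its solvent DMSO. The genes are GJA1, GJA3, GJA5, GJB2 and GJC1, 5 of the 20374 genes with a gene row in at least 1 of the 3 tables. They were chosen by their measured change after CCS1477, because GJA3 was higher and GJA5 lower, so their changes are a description and carry no test. All 5 had a gene row in H460 and ABC-1, and 4 in H2023, where GJA5 was not analysed here. CCS1477, also known as inobrodib, binds the bromodomain shared by the acetyltransferases p300 and CBP, coactivators found at enhancers and promoters. The 6 groups were H460 with CCS1477 and with DMSO, H2023 with CCS1477 and with DMSO, and ABC-1 with CCS1477 and with DMSO, 3 libraries in each. All were sampled at 24 h. H460 is labelled as a large cell carcinoma line, H2023 as squamous and ABC-1 as adenocarcinoma. The series describes H460 and H2023 as NRF2-activated, with NRF2 the factor that drives antioxidant genes, and ABC-1 as wildtype. The dose stands as 5 µM in the sample descriptions and as 5 mM in the series text, and it is read here as 5 µM. Nothing in the labels says whether replicates were separate cultures, so errors and p-values below reflect library-to-library spread alone, and that spread may be technical.

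A connexin hexamer forms a hemichannel in the plasma membrane. Hemichannels of adjacent cells dock end to end and make a gap junction channel, which lets ions, second messengers and small metabolites pass from cell to cell. The alpha, beta and gamma subfamilies (GJA, GJB and GJC) differ in which partners they dock with and in where they are made. GJA1 encodes connexin43, the most widely made connexin, which is present in lung epithelium. GJA3 encodes connexin46, best known from the fibre cells of the eye lens. GJA5 encodes connexin40, known from endothelium and from the atria of the heart. GJB2 encodes connexin26 of epithelia and the inner ear, where its loss causes deafness, and GJC1 encodes connexin45 of smooth muscle and cardiac conduction tissue.

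The genes lie on 4 chromosomes (GRCh38, GENCODE 29). GJA1 (ENSG00000152661) is at chromosome 6, 121435577 to 121449727, on the plus strand. GJA3 (ENSG00000121743, 20138255 to 20161049) and GJB2 (ENSG00000165474, 20187463 to 20193010) are neighbours on the minus strand of chromosome 13. GJA5 (ENSG00000265107) is at chromosome 1, 147756199 to 147773362, minus strand, where an antisense gene (ENSG00000274415) overlaps it. GJC1 (ENSG00000182963) is at chromosome 17, 44798448 to 44830816, minus strand. The promoters below, from RefSeq (GRCh38.p14), are the 250 bases before the RefSeq gene start, shown because GJA3 and GJB2 are adjacent but changed in opposite directions, and because GJA3, GJA5 and GJA1 are those with the largest changes or the highest levels. The table matched 4 of the 5 genes, GJC1 not among them. The windows are chr13:20161053-20161302 for GJA3, chr13:20192939-20193188 for GJB2, chr1:147773352-147773601 for GJA5 (the first of its 2 windows) and chr6:121435396-121435645 for GJA1, each on its gene's strand. The RefSeq starts of GJA1, GJA5 and GJB2 lie inside the GENCODE genes, so those windows overlap the coordinates given above, and the GJA1 match lies within them. Capitals mark matches to GGGCGG (GC box, reading CCGCCC on the other strand) or TGANTCA (AP-1).
GJA3: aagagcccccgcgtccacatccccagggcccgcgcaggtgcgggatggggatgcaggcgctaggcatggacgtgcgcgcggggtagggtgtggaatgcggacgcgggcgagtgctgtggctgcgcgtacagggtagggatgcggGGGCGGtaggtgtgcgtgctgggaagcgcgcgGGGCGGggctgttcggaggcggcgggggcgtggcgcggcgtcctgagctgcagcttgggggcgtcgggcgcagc
GJB2: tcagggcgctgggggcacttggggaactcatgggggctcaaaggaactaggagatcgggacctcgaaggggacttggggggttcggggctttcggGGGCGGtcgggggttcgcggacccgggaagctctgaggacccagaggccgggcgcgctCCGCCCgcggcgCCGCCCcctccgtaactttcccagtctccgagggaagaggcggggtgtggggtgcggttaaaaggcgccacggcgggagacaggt
GJA5: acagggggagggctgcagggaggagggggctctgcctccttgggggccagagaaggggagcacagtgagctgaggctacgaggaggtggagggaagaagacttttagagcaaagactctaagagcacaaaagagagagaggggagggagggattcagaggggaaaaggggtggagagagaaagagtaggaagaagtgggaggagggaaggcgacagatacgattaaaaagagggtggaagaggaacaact
GJA1: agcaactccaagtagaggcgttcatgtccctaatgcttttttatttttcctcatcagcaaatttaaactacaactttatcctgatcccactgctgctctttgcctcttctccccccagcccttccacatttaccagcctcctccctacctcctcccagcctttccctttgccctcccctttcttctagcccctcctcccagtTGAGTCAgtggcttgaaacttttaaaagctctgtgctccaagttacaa
GJA3 and GJB2 had GC- and CpG-rich windows, and those of GJA5 and GJA1 held few CpG. The GC content was 74.8% with 33 CpG for GJA3 and 70.0% with 25 CpG for GJB2. It was 55.6% with 3 CpG for GJA5 and 48.0% with 1 CpG for GJA1, against medians of 58.0% and 11 CpG over 35116 promoters. The 4 motifs were searched on both strands, and no matches of different motifs overlapped in these windows. GGGCGG matched at 106 and 74 bases before the RefSeq start of GJA3 and at 155, 97 and 85 before that of GJB2, and 42.6% of all promoters hold it. TGANTCA matched as TGAGTCA at 48 bases before the GJA1 start, and 6.57% of promoters hold it. TGACNNNGC (the core of the antioxidant response element, in 10.9% of promoters) and TATAAA (the motif of TBP, in 10.7%) had no match in these windows.

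Depth and identity of the libraries bear on every value below. The reads recovered per library numbered 26652288 to 33568177 in H460, 15352633 to 18261153 in H2023 and 14483979 to 17483292 in ABC-1. Levels are given as CPM, the reads of a gene scaled to the depth of its library. A gene was tested when at least 3 of the 6 libraries of a line reached 1 CPM, with limma-trend on the deposited log2 values and Benjamini-Hochberg adjustment over all genes tested. A call means an adjusted p under 0.05. CCS1477 replicate 1 of H460 stood apart: mitochondrial genes took 0.795% of its reads, against 1.54 to 2.40% in the other 17 libraries, and its chi-square per gene against its replicates was 32.9 and 36.2, against 2.23 to 6.86 for the other 16 replicate pairs. KRT8, KRT18 and KRT19, keratins of simple epithelia, averaged 133 to 3225 CPM in the DMSO libraries by line, whereas the epithelial marker EPCAM averaged 0.659 CPM in H460 cells, 36.3 CPM in H2023 cells and 479 CPM in ABC-1. Of the 4 squamous markers, H2023 had a gene row only for TP63, at 1.84 ± 0.42 CPM in DMSO (SD, n = 3). Of the 4 lung adenocarcinoma markers, ABC-1 had a gene row only for NKX2-1, at 1.34 ± 0.28 CPM (SD, n = 3). Markers of the squamous and adenocarcinoma labels were thus at few reads or had no gene row in the line of that label. Rows did not follow the labels: TP63 also had one in ABC-1, and the adenocarcinoma marker NAPSA had one in H2023 only. In H460 the squamous markers KRT5 and KRT6A and the adenocarcinoma marker NKX2-1 had rows. Of the 6 markers of other cell types (PTPRC, CD3E, PECAM1, VWF, COL1A1, COL1A2), COL1A1 had the most, with 6.94 to 7.79 CPM in DMSO by line.

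GJA3 was at a similar level in the 9 CCS1477 libraries of the 3 lines and at 8 reads or fewer in the DMSO libraries of H2023 and ABC-1. In H460 it had 7.15, 6.75 and 6.68 CPM with CCS1477, against 1.84, 1.46 and 1.45 CPM with DMSO. In H2023 it had 4.82, 6.39 and 5.58 CPM (74, 104 and 92 reads) with CCS1477, against 0.168, 0.438 and 0.130 CPM (3, 8 and 2 reads) with DMSO. In ABC-1 the levels were 5.43, 5.63 and 5.26 CPM (95, 95 and 84 reads) with CCS1477, against 0.446, 0.192 and 0.207 CPM (7, 3 and 3 reads) with DMSO. Every CCS1477 library was above every DMSO library of its line. The deposited values of the groups did not overlap for 64.0, 65.2 and 70.4% of genes tested in H460, H2023 and ABC-1. Non-overlap was thus common among all genes, here and for the genes below. The log2 change (CCS1477 minus DMSO, on the deposited scale of log2 of scaled reads plus 4) was 1.96 ± 0.13 in H460 cells, 3.57 ± 0.27 in H2023 cells and 3.39 ± 0.23 in ABC-1 cells (± SE, n = 3 libraries a group here and throughout). The constant of 4 makes a log2 change smaller than the change in CPM where a gene is low. The ratio of mean CPM was 4.33 in H460. Ratios of pooled reads were 22.2 in H2023 (95% exact interval 12.8 to 42.3) and 19.2 in ABC-1 (11.0 to 36.5), and these intervals cover counting error only. In H2023 and ABC-1 the gene passed the filter through its CCS1477 libraries alone, since no DMSO library reached 1 CPM. In bulk RNA, fewer cells that make a transcript and less transcript per cell cannot be told apart, which holds for each gene here.

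**Figure D1:**
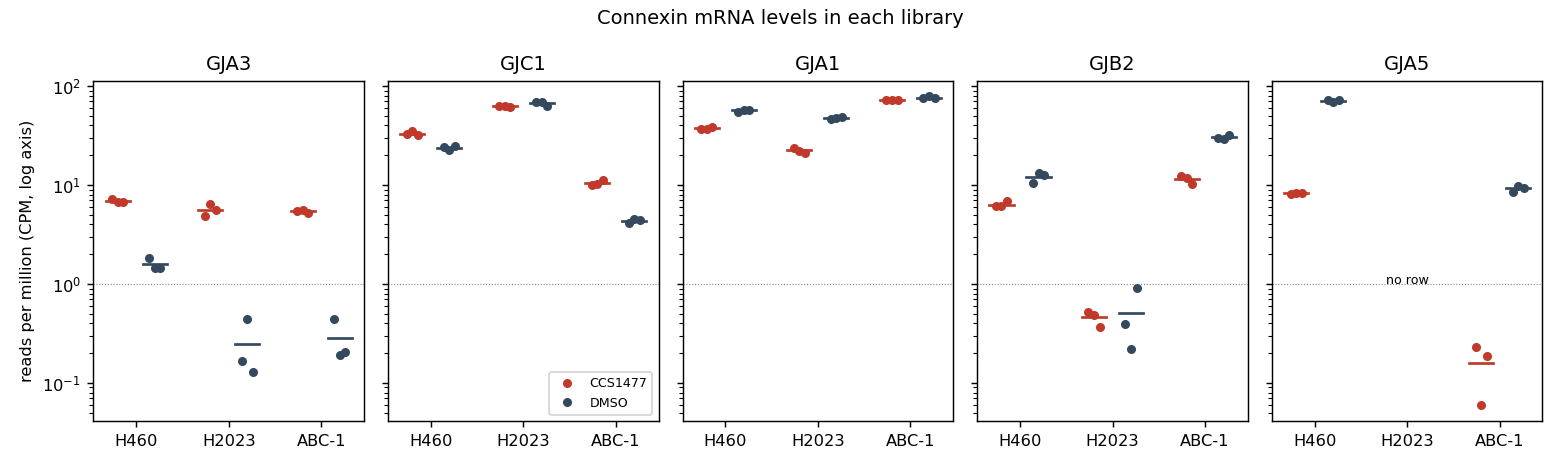
Level of each connexin gene in each library (CPM, log axis), with CCS1477 left of DMSO in each line; points are libraries, short lines are group means, and the dotted line is the filter of 1 CPM. GJA3 lies between 4.82 and 7.15 CPM in all 9 CCS1477 libraries and between 0.130 and 1.84 CPM in the 9 DMSO libraries; GJA5 has no gene row in H2023.

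GJA5 had the lowest log2 changes of the 5 genes in the 2 lines where it was analysed. With CCS1477 it had 8.16, 8.23 and 8.30 CPM in H460, against 72.1, 68.7 and 73.0 CPM with DMSO. The log2 change was -3.17 ± 0.05, an 8.66-fold lower mean CPM. In ABC-1 it had 0.229, 0.0592 and 0.188 CPM (4, 1 and 3 reads) with CCS1477, against 8.60, 9.77 and 9.39 CPM (135, 153 and 136 reads) with DMSO. The log2 change there was -4.57 ± 0.22, and the pooled read ratio was 0.0172 (95% exact interval 0.00737 to 0.0342). The groups did not overlap in either line, and in ABC-1 the gene passed the filter only through the DMSO libraries. How strand was used in counting is not given in the sources used here, so reads of GJA5 and of its antisense gene cannot be told apart.

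GJA1 was lower with CCS1477 in each line, with log2 changes between -1.14 and -0.14. It had 37.0, 37.2 and 38.7 CPM with CCS1477 in H460, against 55.3, 57.1 and 57.8 CPM with DMSO (log2 change -0.66 ± 0.05). In H2023 it had 24.0, 22.1 and 21.1 CPM with CCS1477, against 46.8, 47.5 and 48.9 CPM with DMSO (-1.14 ± 0.06), so its mean CPM was 2.13-fold lower. In ABC-1, the line with the highest GJA1 level, it had 72.0, 72.8 and 72.7 CPM with CCS1477, against 75.2, 78.6 and 75.8 CPM with DMSO (-0.14 ± 0.04). The groups did not overlap in any line, though in ABC-1 the highest CCS1477 library and the lowest DMSO library were 72.8 and 75.2 CPM.

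GJB2, whose gene start lies 32.0 kb upstream of that of GJA3 on the same strand, was lower with CCS1477 where it was measurable. In H460 it had 6.08, 6.10 and 6.87 CPM with CCS1477, against 10.5, 13.1 and 12.5 CPM with DMSO (log2 change -0.98 ± 0.11). In ABC-1 it had 12.5, 11.7 and 10.3 CPM with CCS1477, against 30.0, 28.9 and 31.8 CPM with DMSO (-1.44 ± 0.08). The groups did not overlap in these 2 lines. In H2023 GJB2 was too low to test. It had 8, 8 and 6 reads with CCS1477 and 7, 4 and 14 reads with DMSO, no library reached 1 CPM, and the groups overlapped. The pooled read ratio there was 0.941, with a 95% exact interval of 0.506 to 1.74. This interval covers counting error only, not the spread between libraries, and is not a limit of detection. A rise or a fall is not excluded at this depth.

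GJC1 moved in opposite directions between lines. In ABC-1 it had 10.0, 10.2 and 11.3 CPM with CCS1477, against 4.14, 4.54 and 4.42 CPM with DMSO (log2 change 1.16 ± 0.11). In H460 it had 32.6, 34.9 and 31.8 CPM with CCS1477, against 24.2, 22.6 and 24.7 CPM with DMSO (0.40 ± 0.06). In H2023, where its level was highest, the CCS1477 libraries had 63.1, 63.4 and 62.0 CPM, against 69.1, 69.9 and 62.5 CPM with DMSO (-0.15 ± 0.05). The 2 groups of H2023 overlapped on the CPM scale because of DMSO replicate 3, while on the deposited scale they stood at 9.96, 9.98 and 9.95 with CCS1477, against 10.14, 10.18 and 10.00 with DMSO. A separate transcript row of GJC1, ENST00000587113, held 32, 0 and 24 reads with CCS1477 in H460, against 0 in each DMSO library, and 11 reads in 1 DMSO library of H2023. It held none in the other libraries. The difference between lines was not tested, because the genes were selected on these changes.

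In all, 13 pairs of gene and line passed the filter and 1 (GJB2 in H2023) was too low. By direction alone, the 5 genes in H460 comprised 2 higher and 3 lower. The 3 in H2023 comprised 1 higher and 2 lower, and the 5 in ABC-1 comprised 2 higher and 3 lower. These counts include GJA3 in H2023 and ABC-1 and GJA5 in ABC-1, which passed the filter through 1 group alone. Among all genes tested, 56.1% were called in H460 (28.2% higher, 27.9% lower). In H2023 60.6% were called (28.6% higher, 31.9% lower), and in ABC-1 66.1% (33.5% higher, 32.6% lower). Since the connexins were picked on this contrast, nothing is read from their count or from their median. That median log2 change was the value of 1 gene in each line: GJA1 in H460 (-0.66), GJC1 in H2023 (-0.15) and GJA1 in ABC-1 (-0.14). Over all genes tested the medians were 0.00, -0.01 and 0.01. Leaving out CCS1477 replicate 1 of H460 gave log2 changes of 1.94 for GJA3, -3.16 for GJA5, -0.65 for GJA1, -0.95 for GJB2 and 0.41 for GJC1 in that line.

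**Figure D2:**
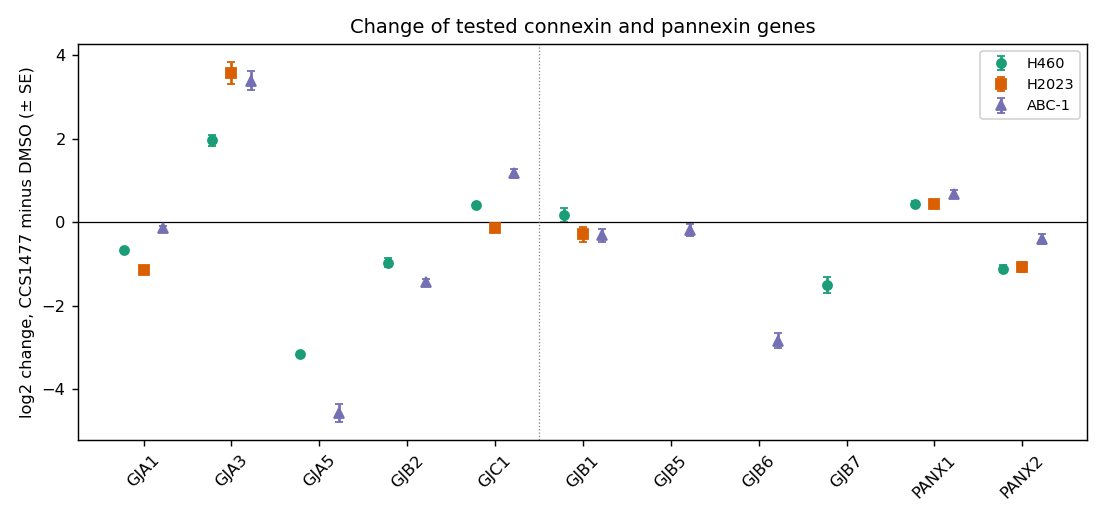
Log2 change (CCS1477 minus DMSO, ± SE) of each tested connexin and pannexin gene in H460 (circles), H2023 (squares) and ABC-1 (triangles); genes left of the dotted line are the 5 chosen by their change. GJA3 is above 0 in each line, at 1.96 to 3.57, GJA5 is lowest, at -3.17 and -4.57, and GJC1 crosses 0 between lines.

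Levels per kilobase of annotated exon set the genes beside each other, and their order depends on that length. The length takes in the exons of all annotated transcripts of a gene, whether or not these lines make them. In H460 the order with CCS1477 was GJA1 (11.0 ± 0.26 CPM per kb), GJC1 (3.82 ± 0.18), GJA5 (2.50 ± 0.02), GJB2 (2.49 ± 0.18) and GJA3 (1.32 ± 0.05), where GJA5 and GJB2 did not differ beyond their spread. With DMSO it was GJA5 (21.6 ± 0.68 CPM per kb), GJA1 (16.6 ± 0.38), GJB2 (4.73 ± 0.54), GJC1 (2.75 ± 0.12) and GJA3 (0.304 ± 0.042). GJA5, first of the 5 with DMSO, was thus level with GJB2 with CCS1477. In H2023 the order with CCS1477 was GJC1 (7.26 ± 0.09 CPM per kb), GJA1 (6.56 ± 0.43), GJA3 (1.07 ± 0.15) and GJB2 (0.180 ± 0.033). With DMSO it was GJA1 (14.0 ± 0.31 CPM per kb), GJC1 (7.75 ± 0.47), GJB2 (0.199 ± 0.141) and GJA3 (0.0471 ± 0.0322). In H2023, then, GJC1 stood above GJA1 with CCS1477 and below it with DMSO on this scale. Without division by length, GJC1 was above GJA1 in both groups. Mean CPM were 62.9 for GJC1 and 22.4 for GJA1 with CCS1477, and 67.1 and 47.7 with DMSO. In ABC-1 the order with CCS1477 was GJA1 (21.2 ± 0.14 CPM per kb), GJB2 (4.51 ± 0.44), GJC1 (1.22 ± 0.08), GJA3 (1.04 ± 0.03) and GJA5 (0.0482 ± 0.0269). With DMSO it was GJA1 (22.4 ± 0.53 CPM per kb), GJB2 (11.9 ± 0.57), GJA5 (2.81 ± 0.18), GJC1 (0.504 ± 0.023) and GJA3 (0.0540 ± 0.0274). All errors in this paragraph are SD over 3 libraries.

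The summed connexin mRNA per kilobase was lower with CCS1477 in each line, and its composition differed. The sum and the shares of each gene rest on the same exon lengths. Over 7 connexin genes with a row in H460 the sum was 22.4 ± 0.43 CPM per kb with CCS1477, against 47.7 ± 0.92 with DMSO (SD, n = 3). Over 6 genes in H2023 it was 17.0 ± 0.74 CPM per kb with CCS1477, against 24.2 ± 0.27 with DMSO. Over 9 genes in ABC-1 it was 34.1 ± 1.27 CPM per kb with CCS1477, against 46.8 ± 0.85 with DMSO. The libraries of the 2 groups did not overlap in any line, and since the sum contains the chosen genes it carries no test. In H460 GJA5 made up 11.1% of the sum with CCS1477, against 45.4% with DMSO, while GJA1 made up 49.2% with CCS1477, against 34.9% with DMSO. GJC1 made up 17.0% of the H460 sum with CCS1477, against 5.77% with DMSO. In H2023 GJA1 took 38.6% with CCS1477, against 57.8% with DMSO, and GJC1 took 42.8% with CCS1477, against 32.0% with DMSO, the larger share of GJC1 coming with a level that was not higher. In ABC-1 GJA1 took 62.4% with CCS1477, against 47.9% with DMSO, and GJB2 took 13.2% with CCS1477, against 25.4% with DMSO. GJA3 reached 5.88% of the sum with CCS1477 in H460, against 0.638% with DMSO. Its share was 6.35% with CCS1477 in H2023, against 0.194% with DMSO, and 3.06% with CCS1477 in ABC-1, against 0.116% with DMSO.

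**Figure D3:**
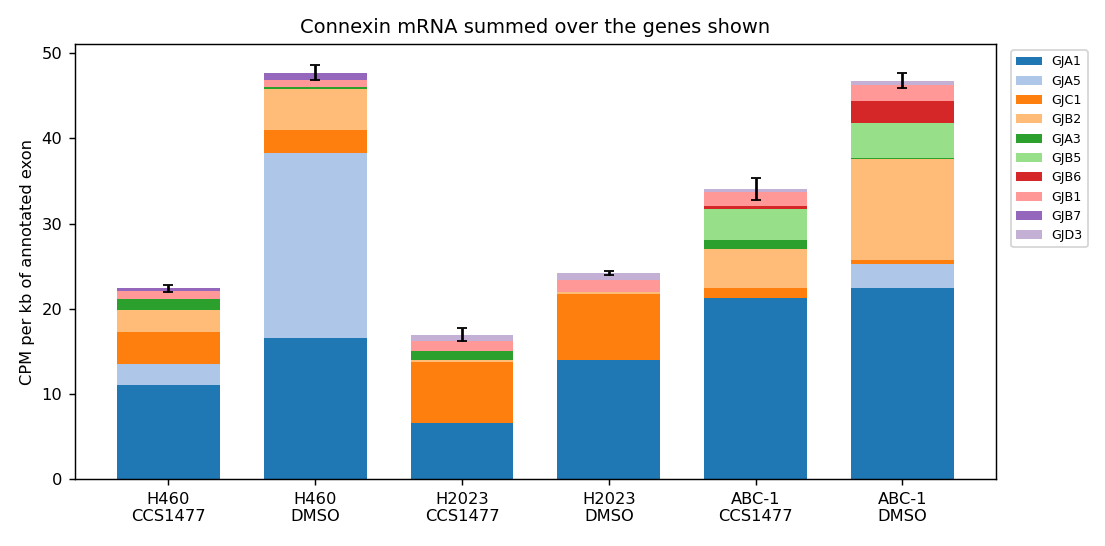
Connexin mRNA per kilobase of exon (CPM per kb), summed over the connexin genes counted in each line and stacked by gene, with CCS1477 left of DMSO; bars are means of 3 libraries and error bars the SD of the sum. The CCS1477 bars are lower in each line (22.4, 17.0 and 34.1), and the GJA5 part of the H460 bar is the part that differs most.

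Other gap junction and pannexin genes were not part of the choice, and 17 of them were looked up. Of these, 4 had a gene row in H460 cells, 5 in H2023 cells and 6 in ABC-1 cells, and 4, 3 and 5 were tested. GJB7 in H460 passed the filter through its DMSO libraries alone and is left out of the counts. Of the remaining 3, 3 and 5 genes, 1 rose and 1 fell in H460, 1 rose and 1 fell in H2023, and 1 rose and 2 fell in ABC-1, against the 56.1, 60.6 and 66.1% of all genes called. Calls were common among all genes, and with 3 to 5 genes counted nothing particular is read from these counts. The median log2 change of the genes counted was 0.16 in H460 cells, -0.30 in H2023 cells and -0.32 in ABC-1 cells.

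Among the beta connexins outside the choice, GJB6 had the one call that is read here. GJB6, the gene next to GJB2 and encoding connexin30 of the skin and inner ear, fell in ABC-1, with 1.03, 1.24 and 0.814 CPM with CCS1477, against 7.90, 9.20 and 8.56 CPM with DMSO (log2 change -2.84 ± 0.17, adjusted p = 7.81e-08). The groups did not overlap. GJB7 in H460 had mean levels of 0.746 CPM with CCS1477, against 2.24 CPM with DMSO. No CCS1477 library reached 1 CPM, so this is a description with no test. SMIM8 overlaps GJB7 on the opposite strand, and without knowledge of the counting strand their reads cannot be told apart. GJB1, the connexin of liver and myelinating Schwann cells, missed the threshold in each line. Its log2 change was 0.16 ± 0.17 in H460 cells (adjusted p = 0.435), -0.30 ± 0.17 in H2023 cells (adjusted p = 0.159) and -0.32 ± 0.15 in ABC-1 cells (adjusted p = 0.0767). GJB5 in ABC-1 had a log2 change of -0.20 ± 0.14 (adjusted p = 0.239). GJD3 in H2023 and ABC-1, and PANX3 in H2023 were too low to test.

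Pannexins form channels in the plasma membrane and do not usually pair between cells. PANX1, the widely made one and known to release ATP, rose in each line. It had 24.5, 21.0 and 23.4 CPM with CCS1477 in H460, against 15.0, 16.3 and 17.1 CPM with DMSO (log2 change 0.44 ± 0.08, adjusted p = 0.00219). In H2023 its change was 0.44 ± 0.06 (adjusted p = 7.45e-05) and in ABC-1 cells 0.68 ± 0.08 (adjusted p = 1.98e-05). PANX2, best known from the brain, fell in each line, and less so in ABC-1. It had 5.33, 5.08 and 4.69 CPM with CCS1477 in H460, against 10.6, 10.4 and 10.5 CPM with DMSO (-1.11 ± 0.09, adjusted p = 2.32e-05). In H2023 it had 9.12, 8.29 and 6.55 CPM with CCS1477, against 16.7, 16.4 and 16.0 CPM with DMSO (-1.08 ± 0.12, adjusted p = 1.43e-05). In ABC-1 it had 6.23, 8.11 and 6.45 CPM with CCS1477, against 8.98, 8.56 and 9.04 CPM with DMSO (-0.41 ± 0.12, adjusted p = 0.0105). The difference in log2 change, H460 minus ABC-1, was -0.70 ± 0.15 (limma interaction over 18 libraries, adjusted p = 9.77e-04), so the fall was larger in H460. H2023 minus ABC-1 gave -0.67 ± 0.15 (adjusted p = 0.00185), and H460 minus H2023 gave -0.04 ± 0.15 (adjusted p = 0.882). The response differed in 50.6% of the 11757 genes tested for H460 minus ABC-1, in 44.8% for H2023 minus ABC-1 and in 30.3% for H460 minus H2023, so a called difference was common. For PANX1 the difference from ABC-1 was -0.24 ± 0.11 in H460 (adjusted p = 0.0709) and -0.23 ± 0.11 in H2023 (adjusted p = 0.0866). The first passed the threshold without DMSO replicate 1 of H460 (adjusted p = 0.0356), without CCS1477 replicate 1 of H460 (0.0407) or without DMSO replicate 2 of ABC-1 (0.0155). With each library left out in turn, or with the replicate number as a block, it ranged from 0.0155 to 0.188. The second passed without DMSO replicate 2 of ABC-1 (adjusted p = 0.0201), with a range of 0.0201 to 0.209.

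Genes around GJA3 moved in both directions. A window of 500 kb on each side of its start, chosen after the values of the connexins were seen, was used to list them by position alone. Upstream of GJA3, in its own direction, lie GJB2 at 32.0 kb and GJB6 at 71.3 kb, both lower with CCS1477 where tested. Further upstream, CRYL1, the gene of lambda-crystallin, a gulonate dehydrogenase, at 364.8 kb, rose by 1.17 ± 0.12 in H460 cells (adjusted p = 7.93e-05), 1.53 ± 0.17 in H2023 cells (adjusted p = 1.86e-05) and 0.94 ± 0.11 in ABC-1 cells (adjusted p = 1.83e-05) on the log2 scale. IFT88, which encodes a carrier of intraflagellar transport in cilia, rose by 0.27 ± 0.07 in H460 cells (adjusted p = 0.0132), 0.46 ± 0.08 in H2023 cells (adjusted p = 4.49e-04) and 1.00 ± 0.07 in ABC-1 cells (adjusted p = 2.20e-07). The first of these calls ended without CCS1477 replicate 2 of H460 (adjusted p = 0.0517). Downstream, ZMYM2 rose by 0.21 ± 0.05 in H2023 cells (adjusted p = 0.00193) and 0.18 ± 0.04 in ABC-1 cells (adjusted p = 0.00347), with 0.04 ± 0.07 in H460 (adjusted p = 0.607). ZMYM5 rose by 0.31 ± 0.11 in H460 cells (adjusted p = 0.0434), a call that ended in 6 of 17 alternatives. Its change was 0.26 ± 0.12 in H2023 cells (adjusted p = 0.0968), called in 3 of 17 alternatives, and -0.16 ± 0.09 in ABC-1 cells (adjusted p = 0.131). PSPC1, which encodes a paraspeckle protein, fell by 0.65 ± 0.08 in H460 cells (adjusted p = 1.96e-04), 0.27 ± 0.09 in H2023 cells (adjusted p = 0.0207) and 0.47 ± 0.06 in ABC-1 cells (adjusted p = 3.36e-05). The call in H2023 ended without DMSO replicate 2 (adjusted p = 0.0808) or without CCS1477 replicate 3 (adjusted p = 0.0614). In the same window around GJA5, the log2 change of its protein-coding neighbour ACP6 was -0.04 ± 0.11 in H460 cells (adjusted p = 0.769) and -0.20 ± 0.10 in ABC-1 cells (adjusted p = 0.101). BCL9, a coactivator of Wnt signalling, fell in H460 (-0.52 ± 0.05, adjusted p = 8.36e-05), while in ABC-1 it had a log2 change of -0.08 ± 0.07 (adjusted p = 0.361). GPR89B, a gene of a near-identical pair at 155.0 kb upstream, had a log2 change of 1.25 ± 0.34 in H460 and -1.38 ± 0.22 in ABC-1, but 0.19 and 0.54 once its transcript rows were added, so its direction is uncertain. No protein-coding neighbour of GJA5 had a loss as large as its own in these 2 lines. Since GJA5 was chosen for its fall, nothing is read from that rank.

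**Figure D4:**
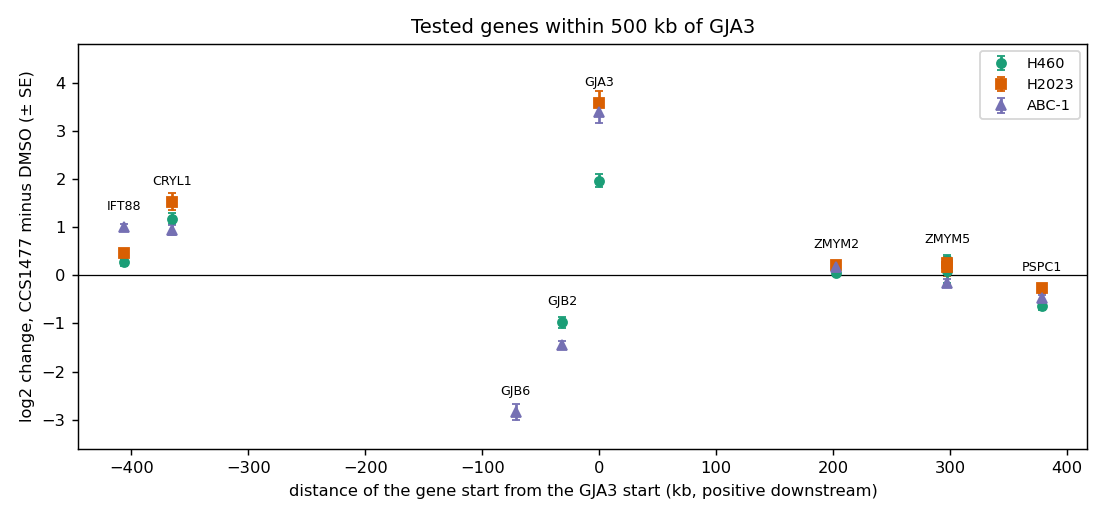
Log2 change (CCS1477 minus DMSO, ± SE) of the tested genes within 500 kb of GJA3, against the distance of each gene's start from that of GJA3 in kb (positive is downstream in the direction of GJA3). GJA3, which was chosen for its rise, is the highest, at 1.96 to 3.57. Its upstream neighbours GJB2 and GJB6 lie below 0, at -0.98 to -2.84. The unlabelled points at the position of ZMYM5 are those of a long non-coding RNA.

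Each connexin's profile over the 6 groups was set beside those of 7985 other genes, by the root mean square difference of centred log2(CPM + 1) values. The profiles closest to GJA3 were TRIM36 (0.21), DCXR (0.22) and DNM3 (0.33). TRIM36 averaged 12.8 CPM with CCS1477 in H460, against 2.82 CPM with DMSO. It averaged 6.89 CPM with CCS1477 in H2023, against 0.816 CPM with DMSO, and 6.31 CPM with CCS1477 in ABC-1, against 0.668 CPM with DMSO. DCXR, dicarbonyl and L-xylulose reductase, averaged 82.8 CPM with CCS1477 in H460, against 23.1 CPM with DMSO. Its mean was 62.1 CPM with CCS1477 in H2023, against 14.5 CPM with DMSO, and 55.3 CPM with CCS1477 in ABC-1, against 16.0 CPM with DMSO. Those closest to GJA1 were NT5DC2 (0.17), AGBL5 (0.21) and PLEKHG3 (0.21). STXBP6 (0.23), EFEMP1 (0.25) and TRIM2 (0.30) came closest to GJB2, and PRAME (0.22), ARHGEF1 (0.25) and GALNT10 (0.26) to GJC1. For GJA5, over the 4 groups that hold it and 6437 genes, the closest were TRIML2 (0.77), DIO2 (0.77) and GASK1B (0.81), which are not close for a profile that spans 5.96 log2 units. These distances describe 4 or 6 group means and carry no test. They take in differences of level between lines, so a close profile need not share the change after CCS1477. In H460, PRAME averaged 29.6 CPM with CCS1477, against 32.6 CPM with DMSO, while GJC1 was higher with CCS1477. PRAME went in the direction of GJC1 in H2023 and ABC-1.

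Genes that hold, modify or move connexins were counted in 4 lists, chosen with earlier results of these data known. Of the 16 scaffold and adhesion partners, 14 were tested in H460 (7 rose, 2 fell), 16 in H2023 (6 rose, 5 fell) and 15 in ABC-1 (7 rose, 5 fell), beside calls for 56.1, 60.6 and 66.1% of all genes tested. The median log2 change was 0.12 in H460 cells, 0.05 in H2023 cells and 0.20 in ABC-1 cells. TJP1, the scaffold ZO-1 that binds connexin43, rose by 0.49 ± 0.04 in H460 cells (adjusted p = 5.50e-05), 0.53 ± 0.04 in H2023 cells (adjusted p = 5.55e-07) and 0.69 ± 0.04 in ABC-1 cells (adjusted p = 5.79e-08) on the log2 scale. CAV1, caveolin-1 of lipid rafts, fell to 61.5 CPM with CCS1477 in H460, against 218 CPM with DMSO (-1.90 ± 0.04, adjusted p = 1.12e-07). It also fell in H2023 cells (-1.94 ± 0.04, adjusted p = 1.86e-10) and in ABC-1 cells (-1.26 ± 0.05, adjusted p = 1.71e-09). DSP, desmoplakin of desmosomes, rose in H460 to 21.6 CPM with CCS1477, against 7.70 CPM with DMSO (1.40 ± 0.10, adjusted p = 1.76e-05). It fell in ABC-1 to 363 CPM with CCS1477, against 509 CPM with DMSO (-0.55 ± 0.04, adjusted p = 3.63e-07), and its change in H2023 was 0.02 ± 0.08 (adjusted p = 0.838). CDH1, E-cadherin, fell in H2023 to 8.11 CPM with CCS1477, against 47.4 CPM with DMSO (-2.56 ± 0.09, adjusted p = 2.40e-09). In ABC-1 it rose to 315 CPM with CCS1477, against 244 CPM with DMSO (0.31 ± 0.03, adjusted p = 9.69e-06). EZR, the membrane to actin linker ezrin, rose in ABC-1 (0.74 ± 0.03, adjusted p = 9.41e-09) and in H460 (0.15 ± 0.04, adjusted p = 0.0112), with 0.07 ± 0.03 in H2023 (adjusted p = 0.0686). The H460 call ended without DMSO replicate 2 of that line (adjusted p = 0.0523).

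All 12 kinases that phosphorylate connexin43 were tested in each line. In H460 5 rose and 3 fell, in H2023 5 rose and 4 fell, and in ABC-1 7 rose and 3 fell, with median log2 changes of 0.14, 0.04 and 0.15. Over all genes tested 56.1, 60.6 and 66.1% were called. PRKACA, a catalytic subunit of protein kinase A, rose by 0.75 ± 0.05 in H460 cells (adjusted p = 1.47e-05), 0.56 ± 0.05 in H2023 cells (adjusted p = 1.83e-06) and 0.68 ± 0.04 in ABC-1 cells (adjusted p = 8.07e-08). Its relative PRKACB rose in H2023 cells (0.35 ± 0.04, adjusted p = 4.59e-05) and in cells of ABC-1 (1.10 ± 0.07, adjusted p = 9.46e-08), with 0.01 ± 0.12 in H460 (adjusted p = 0.960). PRKCA, of protein kinase C, rose in H460 cells (0.55 ± 0.04, adjusted p = 2.52e-05) and in cells of ABC-1 (1.92 ± 0.16, adjusted p = 1.20e-06), with 0.01 ± 0.05 in H2023 (adjusted p = 0.847). SRC, a tyrosine kinase known to close connexin43 channels, fell in H460 to 78.4 CPM with CCS1477, against 147 CPM with DMSO (-0.98 ± 0.09, adjusted p = 4.71e-05). It fell in H2023 as well (-0.63 ± 0.08, adjusted p = 3.21e-05). In ABC-1 it fell to 3.66 CPM with CCS1477, against 13.0 CPM with DMSO (-1.83 ± 0.13, adjusted p = 2.88e-07). MAPK3, the kinase ERK1, fell by 0.51 ± 0.09, 0.94 ± 0.08 and 0.92 ± 0.08 in H460, H2023 and ABC-1 (adjusted p = 0.00208, 2.44e-06 and 2.20e-06). CDK1, the mitotic kinase, fell by 0.13 ± 0.04, 0.77 ± 0.07 and 1.62 ± 0.04 in the same order (adjusted p = 0.0301, 3.19e-06 and 8.96e-11). Its call in H460 ended when DMSO replicate 2, DMSO replicate 3 or CCS1477 replicate 2 was left out (adjusted p = 0.0880, 0.106 and 0.102).

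All 16 genes of assembly, traffic and turnover were tested in each line. In H460 9 rose and 3 fell, in H2023 10 rose and 3 fell, and in ABC-1 8 rose and 2 fell, with median log2 changes of 0.21, 0.20 and 0.18. The shares over all genes tested were 28.2, 28.6 and 33.5% higher and 27.9, 31.9 and 32.6% lower. STUB1, the ubiquitin ligase CHIP, rose by 0.65 ± 0.07 in H460 cells (adjusted p = 1.44e-04), 0.81 ± 0.04 in H2023 cells (adjusted p = 4.90e-08) and 0.61 ± 0.05 in ABC-1 cells (adjusted p = 1.03e-06). TUBB, a beta-tubulin of the microtubules that carry connexins, fell by 0.39 ± 0.04, 0.51 ± 0.03 and 0.66 ± 0.04 in H460, H2023 and ABC-1 (adjusted p = 1.50e-04, 3.31e-07 and 3.44e-08). SQSTM1, the autophagy receptor p62 and a known NRF2 target, rose in H460 cells (0.36 ± 0.06, adjusted p = 0.00146), in H2023 cells (1.04 ± 0.03, adjusted p = 2.40e-09) and in ABC-1 cells (1.25 ± 0.03, adjusted p = 1.43e-10). DAB2, an adaptor of clathrin-mediated uptake, rose in H460 to 3.44 CPM with CCS1477, against 0.969 CPM with DMSO (1.64 ± 0.17, adjusted p = 8.88e-05), where 1 DMSO library reached 1 CPM. In H2023 it rose to 10.5 CPM with CCS1477, against 3.69 CPM with DMSO (1.40 ± 0.12, adjusted p = 2.28e-06), and in ABC-1 its change was 0.18 ± 0.09 (adjusted p = 0.105).

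Of 14 transcription factors known to act on connexin genes, 11 were tested in H460 (4 rose, 3 fell), 11 in H2023 (3 rose, 5 fell) and 9 in ABC-1 (3 rose, 5 fell). Their median log2 changes were -0.04, -0.22 and -0.38, and 56.1, 60.6 and 66.1% of all genes tested were called. FOS, a subunit of AP-1, rose by 1.20 ± 0.16 in H460 cells (adjusted p = 3.65e-04), 1.91 ± 0.10 in H2023 cells (adjusted p = 8.85e-08) and 1.69 ± 0.08 in ABC-1 cells (adjusted p = 1.02e-08). Its partner JUN rose by 1.27 ± 0.22 in H460 cells (adjusted p = 0.00139), 0.57 ± 0.10 in H2023 cells (adjusted p = 6.37e-04) and 1.90 ± 0.09 in ABC-1 cells (adjusted p = 6.36e-09). SP1, the factor that binds GC boxes, fell by 0.14 ± 0.05 in H460 cells (adjusted p = 0.0319), 0.50 ± 0.03 in H2023 cells (adjusted p = 4.11e-07) and 0.56 ± 0.04 in ABC-1 cells (adjusted p = 1.03e-07). The H460 call for SP1 ended when any DMSO replicate (1, 2 or 3 in turn) or CCS1477 replicate 3 was left out (adjusted p = 0.0674, 0.105, 0.0755 and 0.0756). Of the T-box factors of cardiac connexin genes, TBX3 rose in H460 (0.83 ± 0.08, adjusted p = 5.83e-05) and in H2023 cells (0.63 ± 0.10, adjusted p = 2.35e-04) and was too low to test in ABC-1. TBX18 fell in H2023 (-0.75 ± 0.06, adjusted p = 1.18e-06) and in H460 cells (-0.27 ± 0.10, adjusted p = 0.0490), where the call ended when any DMSO replicate (1, 2 or 3 in turn) or CCS1477 replicate 2 was left out (adjusted p = 0.101, 0.0667, 0.149 and 0.143). The H460 calls of CDK1, SP1 and TBX18 ended too under scaling by library totals (adjusted p = 0.253, 0.239 and 0.122). In each of the 4 lists genes moved in both directions.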

How the data were processed

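RNA was extracted with Sepasol and made into directional MGI libraries that were sequenced in pairs of reads, per the labels' protocols. The build was GRCh38, per the submitters' processing notes. The aligner, the counting program and its use of strand were not given in the sources used here. The authors deposited log2 values in 1 table per line. The values themselves show log2 of reads over a factor of the library, plus 4, so a row without reads stands at 2, and reads came back whole within 0.1 for 100% of values of up to 1000 reads. The tables hold 50485 rows (H460), 56303 (H2023) and 56523 (ABC-1), of which 16424, 18140 and 16910 are gene rows; transcript rows held 9.19 to 10.7% of reads and were left out of the main fits. CPM are recovered reads over all rows.

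Genes with at least 1 CPM in 3 of 6 libraries were tested per line with limma-trend (limma 3.58.1, R 4.3.3) on the deposited log2 values, 3 CCS1477 against 3 DMSO, two-sided, Benjamini-Hochberg at 0.05. Differences between lines came from 1 limma fit over 18 libraries and the 11757 genes tested in every line. The main fits used no count model, since the deposited unit is log2, while limma-voom on the recovered reads was an alternative. The procedure was also run on simulated data, with results not reported here. Tables were normalized separately, so levels between lines carry no test. Intervals of read ratios are exact at 95% and cover counting error only. Named were the 5 connexins, other connexin and pannexin genes with a row, per list and line up to 3 called genes of smallest p, and per connexin the 3 closest profiles, among genes of at least 1 CPM with a range of at least 1 log2 unit. The connexins and all lists were chosen with earlier results of these data known. Alternatives were other scalings, limma-voom, other filters and constants, added transcript rows, a replicate block, 1 fit over all libraries, and each library left out. Differences between lines were refitted only with the replicate block and without each library in turn. Some genes are not reported here. A planned comparison of protein sequences was not made.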

Additional observations from a re-analysis of the deposited data

Results flagged for a closer look

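GJC1 changed in opposite directions between lines, with every CCS1477 library above every DMSO library in H460 (log2 change 0.40 ± 0.06) and in ABC-1 (1.16 ± 0.11), and every CCS1477 library below every DMSO library on the deposited scale in H2023 (-0.15 ± 0.05). The difference was not tested, since GJC1 was chosen on these changes, and on the CPM scale the groups of H2023 overlap.

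PANX2 differed in its response between lines. The difference was -0.70 ± 0.15 on the log2 scale for H460 minus ABC-1 (limma interaction, adjusted p = 9.77e-04, from 2.54e-04 to 0.00318 over the alternatives) and -0.67 ± 0.15 for H2023 minus ABC-1 (adjusted p = 0.00185, from 6.96e-04 to 0.00599). The alternatives for differences were the replicate block and each library left out. Other scalings and added transcript rows were not tried for them. A separate transcript row of PANX2, ENST00000402472, held 5, 11 and 7 reads with CCS1477 in H460, against 19, 24 and 32 with DMSO. In H2023 it held 0, 2 and 13 reads with CCS1477, against 25, 14 and 20 with DMSO, and in ABC-1 11, 7 and 5 with CCS1477, against 5, 9 and 2 with DMSO.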

How the results depend on the processing

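Of 205 values of the 5 connexins under alternatives, 192 moved by less than the spread between replicates, 13 moved by more, and 0 changed sign. Those that moved were mostly the low groups, where the constant or the test sets the size. With a constant of 1 the log2 change of GJA3 was 4.28 in H2023 and 4.01 in ABC-1, and that of GJA5 in ABC-1 was -5.52; with a constant of 10 they were 2.82, 2.69 and -3.66; with limma-voom 4.45, 4.13 and -5.83. Scaling by library totals gave -0.59 (GJA1), -3.09 (GJA5) and 0.47 (GJC1) in H460 and -0.077 (GJA1) in ABC-1. That scaling put 60.2% of the calls of H460, 53.7% of H2023 and 56.4% of ABC-1 on the higher side, against 50.3, 47.3 and 50.7%.

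Leaving out each library gave 6376 to 7594 calls in H460, 7930 to 8092 in H2023 and 8219 to 8560 in ABC-1. Of 165 tested results of single genes and differences, 133 kept their side of the threshold in every setting run, 22 lost a call in some setting, 9 gained one and 3 reversed, each with transcript rows added: NEDD4 in H2023 at a log2 change of 0.056 (adjusted p = 0.218), GPR89B in H2023 at 0.50 (adjusted p = 0.0329) and GPR89B in ABC-1 at 0.54 (adjusted p = 2.90e-05). For the other gap junction and pannexin genes, called differences without 1 library each ranged from 1 to 2 for H460 minus ABC-1 and from 1 to 2 for H2023 minus ABC-1, PANX1 being the gene added, or GJB1 without DMSO replicate 2 of H460 (0.61, adjusted p = 0.0332). The alternatives for genes near GJA3 and GJA5 were added after seeing the data.

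Replicate numbers gave no clear pairing of the libraries: the correlation of same-numbered libraries ran from -0.10 to 0.10. In H2023 each CCS1477 library still matched best the DMSO library of its number (correlations of 0.034, 0.044 and 0.038). In H460 this held for replicates 1 and 2, and in ABC-1 it did not hold. Weak pairing in H2023 and H460 is therefore not excluded. With the number as a block, 7356, 8806 and 8768 genes were called in H460, H2023 and ABC-1.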
